A study of Rattus norvegicus with 13 samples.

Results

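The genes described here, 10 of the brain's histamine and serotonin systems, were measured in the hypothalamus of 13 rats raised on chow or on a high-fructose diet. The members are Hdc, Hrh1, Hrh2 and Hrh3 of the histamine system, and Tph2, Slc6a4, Htr2c and Htr1a of the serotonin system. The monoamine oxidase genes Maoa and Maob complete the set, Maob listed under both systems and Maoa under serotonin. All members were chosen by gene symbol, and each symbol matched 1 row of the 17366 in the table. RNA of the hypothalamus was sequenced. Each value is an FPKM, a number of fragments scaled to transcript length and library size. This scaling lets levels of different genes be set side by side. Of the rats, 7 ate Lab Rodent Diet 5001, a standard chow with 0.30% fructose, and 6 ate Research Diets D05111802 with 55% fructose. All 13 went on their diet at postnatal day 25, were housed in pairs, were fasted overnight from day 79 and were killed on day 80. Death came 1 h after an intraperitoneal injection of either glucose, at 2 g per kg, or saline, and the sources used here do not say which of them each sequenced rat received. Strain, sex and cage are not given either, so that cage mates may count as separate rats.

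Histamine in the brain is made by neurons of the tuberomammillary nucleus, which lies in the posterior hypothalamus and keeps the brain awake. Histidine decarboxylase, encoded by Hdc, forms histamine in a single step, so that Hdc marks these neurons. Serotonin neurons sit in the raphe nuclei of the brainstem and send axons to the hypothalamus, where serotonin curbs feeding through receptors that local neurons make. A gene of serotonin synthesis is therefore read from cell bodies outside the hypothalamus, and a receptor gene from cells within it. Monoamine oxidases break down serotonin and the product that remains of histamine after methylation.

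Total FPKM, which is already scaled to library size, lay between 556902 and 608058 per rat. No read counts were used, so the depth is unknown. Of 14 genes that mark the hypothalamus, melanin-concentrating hormone (Pmch, 1345 to 7136 FPKM) and orexin (Hcrt, 217 to 1012 FPKM) were abundant in every rat. Others varied widely or were low, such as vasopressin (Avp, 0.451 to 601 FPKM), oxytocin (Oxt, 2.04 to 1455 FPKM), Agrp and Ghrh (each at 0 in 1 fructose rat) and Rax (above 0 in 6 of 13 rats). Their sum ran from 4204 to 9806 FPKM on chow and from 1660 to 7268 FPKM on fructose, with 3 fructose rats below every chow rat. Of the 13 tested, limma called 0, with 1 at an unadjusted p under 0.05 and 0 by the exact permutation test at that level. Markers of neighbouring regions did differ between diets. Of 11 tested markers of midbrain dopamine neurons, 11 were higher on fructose, and their summed FPKM ran from 87.6 to 126 on chow and from 221 to 606 on fructose. Of 14 tested markers of the thalamus, 8 were lower and 1 was higher, and their sum ran from 994 to 1964 on chow and from 909 to 1428 on fructose. Of 10 tested striatal markers 3 were higher and 1 was lower, and of 4 tested red blood cell genes 4 were higher. No endothelial marker passed of 8 tested with limma (0 called, 4 at an unadjusted p under 0.05, 5 by the exact test), no microglial marker of 8 (0 called, 2 and 2), and no noradrenaline marker was abundant enough to test. The part of any of these in the results was not tested. Over all 11837 genes tested, 2269 lay at an unadjusted p under 0.05 by limma and 2223 by the exact test.

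The members spanned a wide range of levels. On chow the most abundant was Hrh3 at 82.3 ± 12.1 FPKM (SD, n = 7), followed by Htr2c at 60.9 ± 9.88 FPKM. Maob (38.7 ± 5.51 FPKM) and Maoa (38.3 ± 3.82 FPKM) came next and did not differ beyond their spread, with Maob the higher of the pair in 3 of 7 rats. Hrh2 (5.93 ± 0.766 FPKM) and Hdc (5.57 ± 1.86 FPKM) were likewise level, with Hrh2 higher in 4 of 7 rats. Hrh1 (3.42 ± 0.614 FPKM) and Htr1a (3.13 ± 1.14 FPKM) also overlapped, with Hrh1 higher in 5 of 7. Tph2 (0.315 ± 0.124 FPKM) and Slc6a4 (0.0558 ± 0.0526 FPKM) were the lowest. Against the 11837 genes tested, the mean of Hrh3 over all rats exceeded that of 86.0% and the mean of Htr2c that of 84.4%, while Hdc exceeded 34.1% and Hrh1 18.4%. On fructose the order changed at 3 places. Htr2c (62.0 ± 5.26 FPKM, SD, n = 6) stood above Hrh3 (51.4 ± 10.4 FPKM) in 5 of 6 rats, Hdc (11.3 ± 6.40 FPKM) stood above Hrh2 (5.06 ± 1.60 FPKM) in 5 of 6, and Htr1a (4.47 ± 0.882 FPKM) above Hrh1 (3.55 ± 0.810 FPKM) in 5 of 6. For each of these 3 pairs the ranges overlapped.

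**Figure D1:**
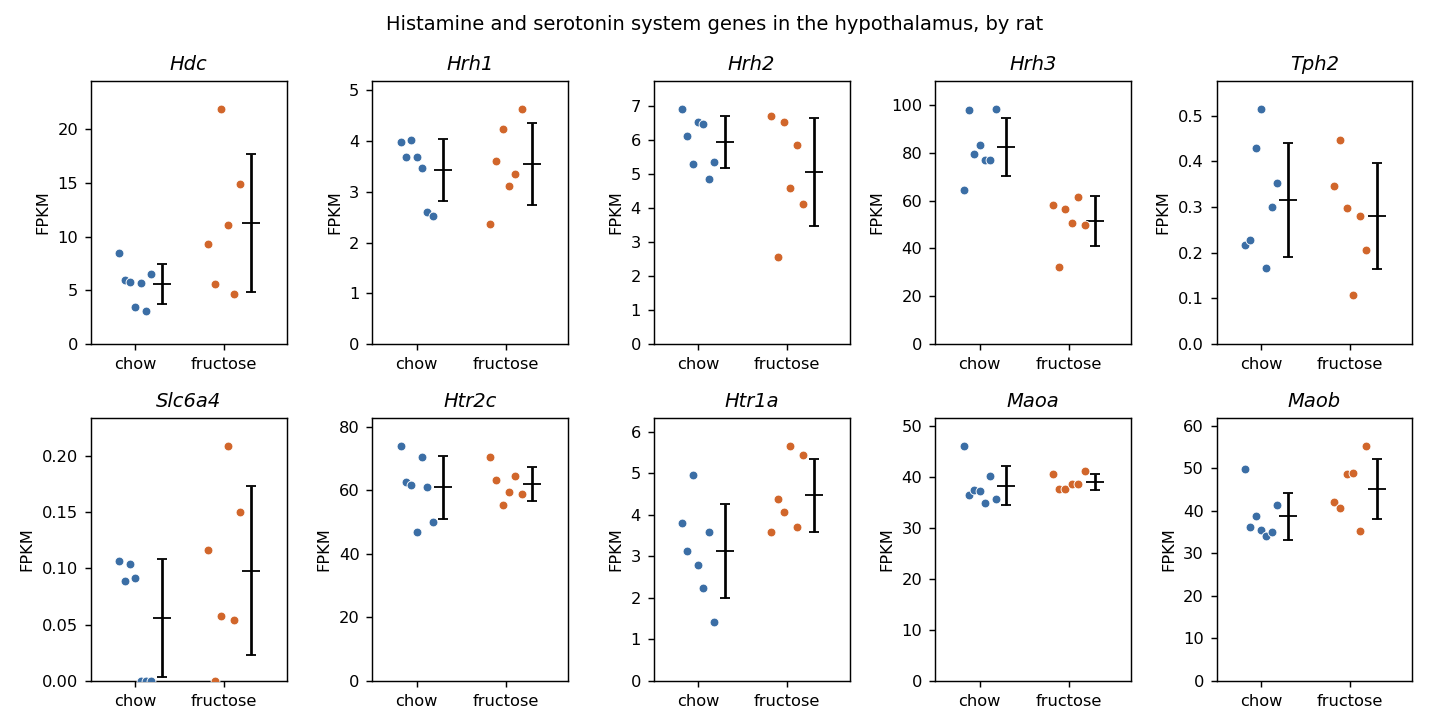
FPKM (vertical axes, each from 0) of the 10 genes in 7 chow and 6 fructose rats, 1 point per rat, with the mean and SD as a bar beside the points. The Hrh3 points of the 2 diets do not overlap (64.4 to 98.1 FPKM on chow, 32.3 to 61.3 on fructose), and the Hdc points of the fructose rats spread from 4.67 to 21.9 FPKM.

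The diets were compared gene by gene with limma over the 11837 genes whose mean reached 0.5 FPKM, with the threshold at an adjusted p of 0.05. That mean was reached by 8 of 10 members, and Tph2 and Slc6a4 lay below it. Of the 8, 1 fell on fructose (Hrh3), 0 rose and 7 did not pass. Among all genes tested 3.94% were called, 2.27% as lower on fructose, so that 1 call in 8 genes is a small count beside the background. At an unadjusted limma p under 0.05 there were 3 (Hrh3, Hdc and Htr1a), beside 2269 of the 11837 genes tested. The median log2 fold change of the 8 was 0.04, against 0.00 over all genes tested. In bulk tissue, fewer cells of a type and less RNA per cell cannot be told apart.

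Hrh3 encodes the receptor that sits on histamine neurons themselves, where it restrains histamine release, and on other neurons as a brake on transmitter release. It was lower in fructose rats, at 32.3, 49.6, 50.7, 56.3, 58.1 and 61.3 FPKM, than in chow rats, where the lowest stood at 64.4, the median at 79.2 and the highest at 98.1 FPKM. The diets did not overlap for Hrh3, which held for 1.61% of all genes tested. The log2 fold change was -0.69 ± 0.13 (SE, limma adjusted p = 0.0193), with a 95% interval from -0.97 to -0.41, which puts the fructose level at 0.620 of the chow level. The exact two-sided permutation p was 0.00117. Adjusted over all genes that test gave 0.0738, and it called 0 genes in the whole table, with 2223 at an unadjusted p under 0.05, so the call rests on limma. Leaving out any 1 of the 13 rats kept limma's adjusted p between 0.00943 and 0.0465.

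Hrh3 followed the markers of the thalamus from rat to rat. In chow rats the Pearson r between Hrh3 and the summed thalamus markers, on the log2 scale, was 0.93 (n = 7, exact permutation p = 0.00635, adjusted p = 0.0381) and Spearman's rho was 0.79 (exact p = 0.0480, adjusted p = 0.144). In fructose rats r was 0.75 (n = 6, exact permutation p = 0.0347, adjusted p = 0.104) and rho was 1.00 (exact p = 0.00278, adjusted p = 0.0167). Without the 2 rats farthest from the median of the markers, which leaves 5 chow and 4 fructose rats here and in the relations that follow, r was 0.78 and 0.64. These are 2 of 6 relations with marker sums, chosen after the values were seen. Both diets have rats with a low marker sum. Cplx1 and Calb2 weigh most in that sum, at means of 473 and 270 FPKM on chow and 359 and 382 FPKM on fructose. A like sum is therefore not a like level of the other markers. Chow replicate 1 had a sum of 994 and 64.4 FPKM of Hrh3. Fructose replicates 2, 6 and 4 had sums of 909, 918 and 962, and 32.3, 49.6 and 50.7 FPKM of Hrh3. These rats were not alike in each marker. Calb2, the 1 marker that rose, stood at 286 FPKM in that chow rat and at 392, 347 and 443 FPKM in those fructose rats. Prkcd stood at 53.6 FPKM against 7.83, 21.1 and 18.7 FPKM, and Cplx1 at 329 FPKM against 331, 325 and 278 FPKM. Zic1, a transcription factor gene among the thalamus markers, fell by 1.24 on the log2 scale (-1.24 ± 0.23, limma adjusted p = 0.0161) with no overlap between diets. Every other thalamus marker overlapped between diets, and Calb2 was higher on fructose (0.51 ± 0.11, limma adjusted p = 0.0288). The thalamus expresses Hrh3, and what part of the fall of Hrh3 goes with the thalamus markers was not tested.

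**Figure D2:**
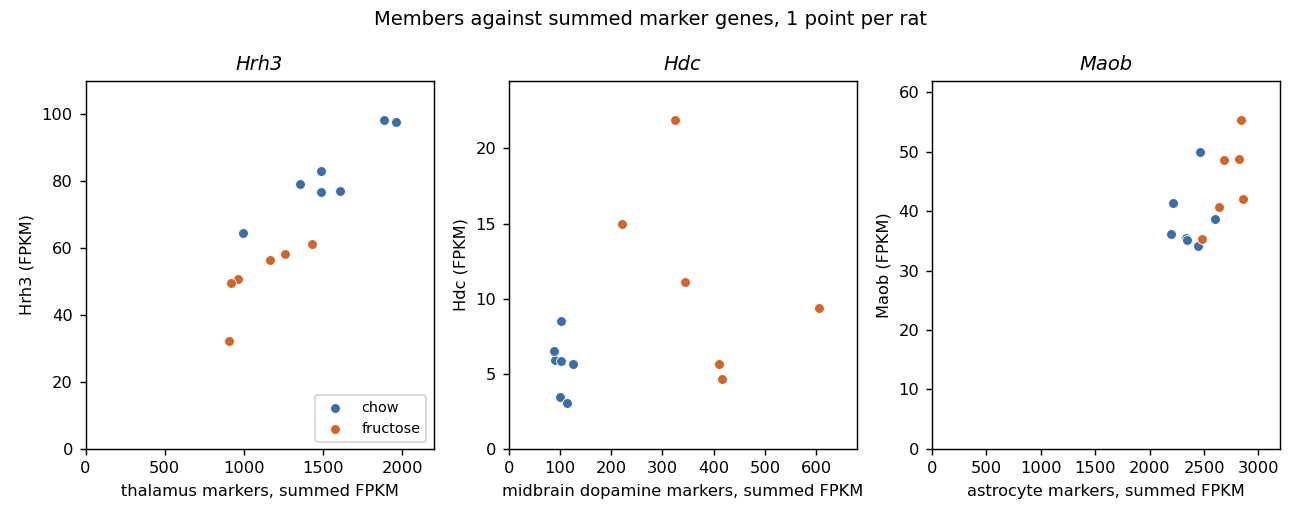
FPKM of Hrh3, Hdc and Maob (vertical axes) against the summed FPKM of thalamus, midbrain dopamine and astrocyte markers (horizontal axes), 1 point per rat, chow in blue and fructose in orange. Hrh3 rises with the thalamus sum (r of 0.93 on chow and 0.75 on fructose). By the exact permutation test of r it passed on chow (adjusted p = 0.0381) and not on fructose (adjusted p = 0.104). By rho it passed on fructose (adjusted p = 0.0167) and not on chow (adjusted p = 0.144). No relation of Hdc to the dopamine sum passed within a diet.

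Hdc values were higher in most fructose rats but did not pass. They stood at 4.67, 5.62, 9.37, 11.1, 15.0 and 21.9 FPKM on fructose, and on chow between 3.08 and 8.53 FPKM with a median of 5.83. Of the fructose rats 4 of 6 lay above every chow rat, and the other two lay below the chow median. The log2 fold change was 0.84 ± 0.31 (SE, limma adjusted p = 0.146, unadjusted p = 0.0161), with a 95% interval from 0.18 to 1.50. The exact permutation p was 0.0408. With array weights, which let limma count an atypical library less, the log2 fold change was 1.03 and the adjusted p 0.0479. The SD of Hdc over rats was 33.3% of the mean on chow and 56.8% on fructose. Of the other tested markers of tuberomammillary neurons, only Slc18a2, the vesicular monoamine transporter, passed. It is also among the midbrain dopamine markers, of which 11 of 11 tested rose. Hcrtr2, the receptor through which orexin excites tuberomammillary neurons, stood at 0.34 ± 0.15 on the log2 scale (limma adjusted p = 0.218, unadjusted p = 0.0352). Maob stood at 0.22 ± 0.10 (adjusted p = 0.271) and Prph, peripherin, at 0.09 ± 0.10 (adjusted p = 0.694). Gad1, for GABA synthesis (-0.15 ± 0.16, adjusted p = 0.672), Gal, galanin (-0.42 ± 0.32, adjusted p = 0.522), and Ada, adenosine deaminase (0.27 ± 0.28, adjusted p = 0.665), did not pass either.

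Hdc can also be read from mast cells, which store histamine. The 8 mast cell markers other than Kit summed to 0.119 to 1.62 FPKM on chow and 0.204 to 1.44 FPKM on fructose. Their highest single value in any rat was 0.675 FPKM, Mcpt1 was listed at 0 in all rats, and Kit, which neurons make as well, stood at 0.53 ± 0.17 (limma adjusted p = 0.0964). No relation of Hdc to the summed dopamine markers passed within a diet, and tests on 7 and 6 rats can miss one. What part neighbouring tissue had in the Hdc values was not tested. Pearson r was -0.31 (n = 7, exact permutation p = 0.507, adjusted p = 0.608) on chow and -0.51 (n = 6, exact permutation p = 0.276, adjusted p = 0.415) on fructose, with rho of -0.54 (adjusted p = 0.283) and -0.77 (adjusted p = 0.206), and r of -0.48 and -0.97 without the 2 farthest rats. The fructose rat with the most Hdc, replicate 3 (21.9 FPKM), had a dopamine marker sum of 325, and the one with the highest dopamine sum, replicate 1 (606), had 9.37 FPKM of Hdc.

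The receptors through which histamine excites neurons and glia were less abundant than Hrh3. Hrh1, the target of sedating antihistamines, stood between 2.53 and 4.01 FPKM on chow (median 3.68) and at 2.36, 3.11, 3.36, 3.60, 4.24 and 4.62 FPKM on fructose. On fructose 2 rats lay above every chow rat and 1 below, and the log2 fold change was 0.04 ± 0.14 (limma adjusted p = 0.925), with a 95% interval from -0.27 to 0.34. Hrh2, a receptor coupled to cyclic AMP, ran from 4.86 to 6.91 FPKM on chow (median 6.13) and stood at 2.58, 4.13, 4.58, 5.84, 6.53 and 6.70 FPKM on fructose. For Hrh2, 3 of 6 fructose rats lay below every chow rat and 0 above, and the log2 fold change was -0.26 ± 0.17 (limma adjusted p = 0.445, interval from -0.62 to 0.10). Fructose replicate 2 was the lowest of all rats for both Hrh2 and Hrh3. Without it the Hrh2 value was -0.10 and the Hrh3 value -0.56. Whether the fall of Hrh3 differed from the values of Hrh1 or Hrh2 was not tested. Hrh4, a receptor of blood-borne immune cells, was listed at 0 in all 13 rats. Hnmt, the enzyme that methylates histamine and so ends its action in the brain, averaged 7.58 ± 1.09 FPKM in chow rats and 7.65 ± 1.72 FPKM in fructose rats (log2 fold change -0.0021 ± 0.12, limma adjusted p = 0.997, interval from -0.27 to 0.26).

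Hdc was then set against its receptors within each rat, as the difference of log2(FPKM + 0.5), with 4 ratios compared between diets. FPKM of Hdc was 0.0401 to 0.133 of Hrh3 in chow rats, and 0.0761, 0.161, 0.174, 0.220, 0.301 and 0.388 of it in fructose rats. Among fructose rats 5 of 6 lay above every chow rat, and only fructose replicate 5, at 0.0761, fell among them. The ratio of Hdc to Hrh3 was higher on fructose by 1.53 on the log2 scale (-3.82 ± 0.54 on chow, SD, n = 7, and -2.29 ± 0.78 on fructose, SD, n = 6, exact two-sided permutation p = 0.00350, adjusted p = 0.0140). Against Hrh2, Hdc stood at 0.526 to 1.24 of it on chow and at 0.799, 1.40, 2.18, 2.43, 3.35 and 3.62 on fructose, so that Hdc was the more abundant in 3 of 7 chow rats and 5 of 6 fructose rats. That ratio was higher by 1.10 (-0.14 ± 0.43 and 0.96 ± 0.78, exact permutation p = 0.0117, adjusted p = 0.0233). Against Hrh1 the ratio was higher by 0.80 (0.58 ± 0.44 and 1.38 ± 0.72, exact permutation p = 0.0373, adjusted p = 0.0497), with 4 of 6 fructose rats above every chow rat. The Hrh1 ratio rested on single rats. Its adjusted p lay between 0.0707 and 0.113 without any 1 of chow replicates 2, 3, 4, 5 or 6 or fructose replicates 1, 3, 4 or 6. The ratios to Hrh2 and Hrh3 passed whichever of the 13 rats was left out, at an adjusted p of at most 0.0476 and 0.0202. The 3 ratios share Hdc and are not independent of each other. On the log scale each difference is that of Hdc minus that of the receptor, so it restates the single-gene values. For Hrh1 (0.04) it is close to that of Hdc alone (0.84, exact permutation p = 0.0408), which did not pass. The ratios were adjusted over 4 tests, not over all genes, which is a lighter correction.

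**Figure D3:**
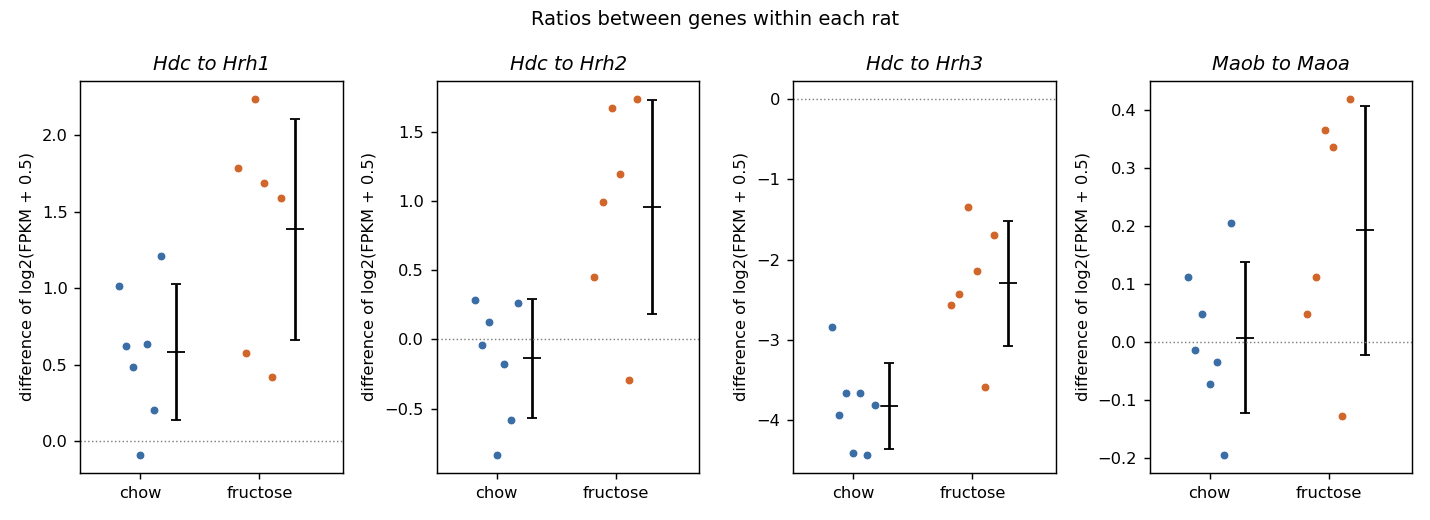
Difference of log2(FPKM + 0.5) between the genes named above each panel (vertical axes), 1 point per rat, with mean and SD beside the points; the dotted line at 0 marks equal values. The Hdc to Hrh3 difference averages -3.82 on chow and -2.29 on fructose, and the Maob to Maoa difference 0.01 and 0.19.

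Within a diet, no relation of Hdc to another member passed in 18 exact tests (9 members in each diet). At an unadjusted p under 0.05 there was 1 by Pearson's r, with Maob in fructose rats, and 1 by rho, with Maob in chow rats. For Hrh1, r was 0.36 on chow (n = 7, exact permutation p = 0.445) and 0.43 on fructose (n = 6, exact permutation p = 0.408), with rho of 0.29 and 0.49. For Hrh2 it was 0.41 (exact permutation p = 0.360) and 0.34 (exact p = 0.518), with rho of 0.39 and 0.14. For Hrh3 it was -0.12 (exact permutation p = 0.800) and 0.27 (exact p = 0.632), with rho of 0.14 and -0.26. The highest Pearson values were with Maob, which histamine neurons are known to make. There r was 0.73 on chow (exact permutation p = 0.0629) and 0.85 on fructose (exact p = 0.0375), each with an adjusted p of 0.566. The Spearman coefficients were 0.86 and 0.83 (exact p = 0.0238 and 0.0583, each with an adjusted p of 0.350), and r was 0.96 and 0.91 without the 2 rats farthest from the Hdc median. Htr2c ran the other way in fructose rats, at r of -0.67 (exact permutation p = 0.140) and rho of -0.83 (exact p = 0.0583, adjusted p = 0.350), against r of 0.49 (exact permutation p = 0.260) and rho of 0.46 on chow. Without the 2 farthest rats r for Htr2c was 0.30 on chow and -0.43 on fructose. For the histamine receptors those values were 0.13 and 0.31 (Hrh1), 0.50 and 0.51 (Hrh2), and -0.57 and 0.73 (Hrh3).

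**Figure D4:**
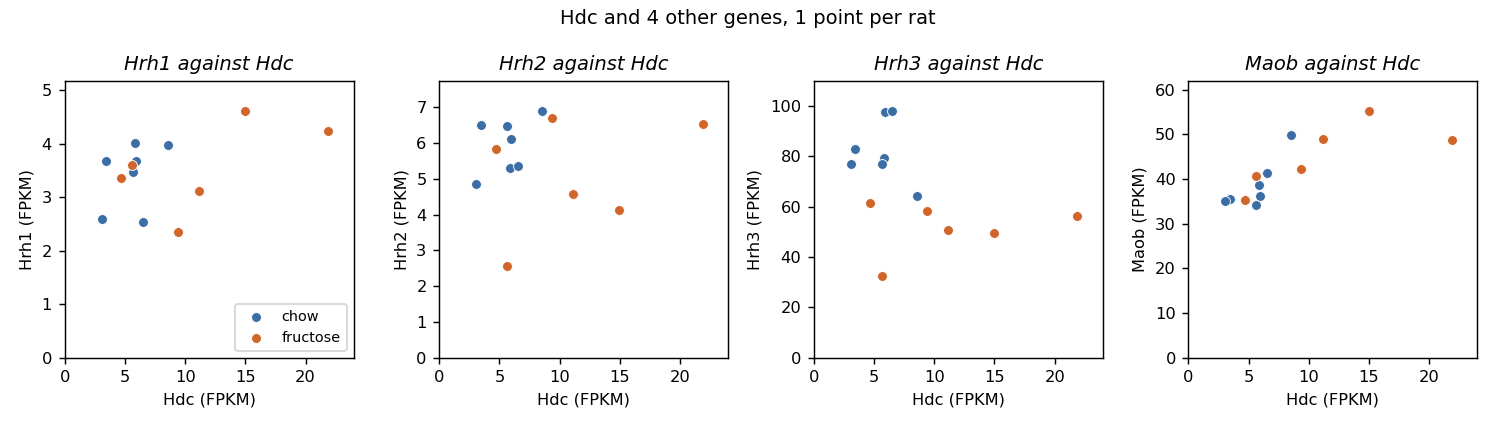
FPKM of Hrh1, Hrh2, Hrh3 and Maob (vertical axes, from 0) against FPKM of Hdc (horizontal axes), 1 point per rat, chow in blue and fructose in orange. Maob tends to be high where Hdc is high (r of 0.73 on chow and 0.85 on fructose). Neither of these relations passed (exact permutation test, adjusted p = 0.566 in each). The Hrh3 points of the diets do not overlap.

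The genes that set serotonin neurons apart, Tph2 and Slc6a4, were the lowest members. Tph2, the neuronal tryptophan hydroxylase that limits serotonin synthesis, ran from 0.167 to 0.514 FPKM on chow (median 0.301) and stood at 0.107, 0.205, 0.280, 0.298, 0.346 and 0.448 FPKM on fructose. The diets overlapped, with 1 fructose rat below every chow rat and 0 above (difference of log2 means -0.06, exact permutation p = 0.600). Slc6a4, the serotonin transporter and target of many antidepressants, was above 0 in 4 of 7 chow and 5 of 6 fructose rats, and its highest value was 0.209 FPKM, in fructose replicate 4. A value of 0 in such a table can be a failed estimate, so no fold is given for Slc6a4 (exact permutation p = 0.273). Fev, a transcription factor gene of serotonin neurons, was low as well, and Tph2, Slc6a4 and Fev together came to no more than 0.605 FPKM in any chow and 0.566 FPKM in any fructose rat. Tph1, the hydroxylase of pineal and gut, stood at no more than 0.276 FPKM.

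Htr2c was the most abundant serotonin receptor gene. It encodes a receptor of pro-opiomelanocortin neurons through which serotonin lowers food intake. Htr2c ran from 46.8 to 74.0 FPKM on chow (median 61.7) and from 55.5 to 70.4 FPKM on fructose (median 61.3). Every fructose rat lay within the chow range, and the log2 fold change was 0.04 ± 0.10 (limma adjusted p = 0.887, 95% interval from -0.17 to 0.24). The choroid plexus also makes Htr2c. Its markers other than Enpp2 summed to 14.0 to 61.6 FPKM on chow and 9.56 to 42.8 FPKM on fructose. Enpp2, the most abundant gene of that list, ran from 110 to 147 FPKM on chow and from 117 to 167 FPKM on fructose. With it the sums were 133 to 189 FPKM and 126 to 180 FPKM. Of 6 tested choroid markers limma called 0, with 1 (Ttr) at an unadjusted p under 0.05 and 0 by the exact test. Otx2 was listed at 0 in all rats. Several microRNA genes lie within Htr2c in the RefSeq annotation.

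Htr1a, an inhibitory receptor of serotonin neurons and of their targets, was the second serotonin receptor among the members. It stood between 1.42 and 4.95 FPKM on chow (median 3.12) and at 3.59, 3.70, 4.07, 4.38, 5.44 and 5.66 FPKM on fructose. All 6 fructose rats lay above the chow median and 2 lay above every chow rat. The log2 fold change was 0.50 ± 0.20 (limma adjusted p = 0.178, unadjusted p = 0.0235, interval from 0.08 to 0.93; exact permutation p = 0.0402), and it did not pass. Among the other receptor genes, values of Htr2a, the target of classical psychedelics, were also higher in most fructose rats. It stood at 2.46 ± 0.550 FPKM on chow and 4.12 ± 1.51 FPKM on fructose (0.60 ± 0.21, limma adjusted p = 0.121), with 4 of 6 fructose rats above every chow rat, and it passed without fructose replicate 5 (adjusted p = 0.0224). Htr7 (8.65 ± 2.54 and 7.79 ± 1.79 FPKM), Htr1b (7.18 ± 1.66 and 7.89 ± 2.13 FPKM) and Htr5a (5.32 ± 0.751 and 4.97 ± 1.20 FPKM) did not pass, nor did Htr3a, the subunit of an ion channel (3.99 ± 1.34 and 5.21 ± 1.35 FPKM, adjusted p = 0.348). Htr1d, Htr1f, Htr4 and Htr6 averaged between 0.826 and 1.69 FPKM and did not pass. Htr3b was listed at 0 in all rats.

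Maoa varied least from rat to rat of the members in both diets. MAO-A, from Maoa, prefers serotonin and noradrenaline, while MAO-B, from Maob, is found in astrocytes and in histamine and serotonin neurons. Maoa ran from 35.0 to 46.1 FPKM on chow (median 37.3) and from 37.6 to 41.2 FPKM on fructose, with a log2 fold change of 0.03 ± 0.06 (limma adjusted p = 0.834, 95% interval from -0.10 to 0.16). All 6 fructose rats lay above the chow median. The SD of Maoa was 9.98% of the mean on chow and 3.91% on fructose. Maob ran from 34.2 to 49.9 FPKM on chow (median 36.1) and stood at 35.3, 40.7, 42.1, 48.7, 48.8 and 55.3 FPKM on fructose. Of these 5 of 6 were above the chow median, and 1 lay above every chow rat. The log2 fold change of Maob was 0.22 ± 0.10 (limma adjusted p = 0.271, interval from -0.0045 to 0.44). Per rat, Maob stood at 0.872 to 1.16 of Maoa on chow and at 0.915 to 1.34 on fructose, a log2 difference of 0.19 (exact permutation p = 0.0816, adjusted p = 0.0816). It passed only without fructose replicate 5 (0.25, adjusted p = 0.0189). The genes are neighbours in the rat genome.

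Maob is also made by astrocytes, whose markers were therefore set beside it. Of 9 tested, 7 did not pass and 2 rose, Gfap (0.62 ± 0.14, limma adjusted p = 0.0323) and Aqp4 (0.27 ± 0.06, limma adjusted p = 0.0276). All 9 had a log2 fold change above 0. The sum of the 9 ran from 2195 to 2600 FPKM on chow and from 2483 to 2853 on fructose. Most of that sum was S100b, which averaged 1571 FPKM on chow and 1767 FPKM on fructose. Aqp4 lost its call when any 1 of chow replicates 2 and 4 and fructose replicates 4 and 6 was left out (limma adjusted p from 0.0588 to 0.0696), and Gfap without these or chow replicate 5 (0.0501 to 0.0795). Within a diet, r between Maob and that sum was 0.19 on chow (n = 7, exact permutation p = 0.682, adjusted p = 0.682; rho 0.11, exact p = 0.840) and 0.75 on fructose (n = 6, exact permutation p = 0.0639, adjusted p = 0.128; rho 0.66, exact p = 0.175), and 0.15 and -0.11 without the 2 farthest rats, so that the fructose value rests on those rats.

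The wider pathway was drawn from a list of 30 genes of histamine and serotonin synthesis, storage, uptake, breakdown and reception, 10 of them the members. Of the 22 tested, 2 rose, 2 fell and 18 did not pass, beside 3.94% called over all genes tested. The diets did not overlap for 3, beside 1.61% over all genes. The median log2 fold change was 0.08. Both genes that rose are shared with dopamine neurons. Slc18a2, which loads every monoamine including histamine into vesicles, stood at 18.1, 24.8, 26.0, 28.9, 33.0 and 48.3 FPKM on fructose and at no more than 11.6 FPKM on chow (1.52 ± 0.16, limma adjusted p = 0.000376). Ddc, the decarboxylase of serotonin and dopamine synthesis, went from 6.52 ± 0.851 FPKM (SD, n = 7) to 16.9 ± 4.76 FPKM (SD, n = 6), by 1.26 ± 0.16 (limma adjusted p = 0.00104). The dopamine transporter Slc6a3, which neither histamine nor serotonin neurons need, ran from 0.285 to 5.95 FPKM on chow and from 28.3 to 125 FPKM on fructose. Which cells gave the added Slc18a2 and Ddc RNA was not tested.

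Slc22a3, a low-affinity uptake carrier for monoamines and histamine, was the second gene to fall beside Hrh3. It stood at 1.44, 1.55, 1.71, 1.92, 2.55 and 2.72 FPKM on fructose and between 2.70 and 4.88 FPKM on chow (median 3.77), with 5 of 6 fructose rats below every chow rat. The log2 fold change was -0.75 ± 0.15 (limma adjusted p = 0.0249). The call was lost without chow replicate 2 or 4 (adjusted p = 0.0541 and 0.0517) or fructose replicate 4 or 6 (0.0629 and 0.0563). Slc29a4, another such carrier, stood at 16.2 ± 2.54 and 14.9 ± 2.00 FPKM (-0.11 ± 0.11, adjusted p = 0.632).

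**Figure D5:**
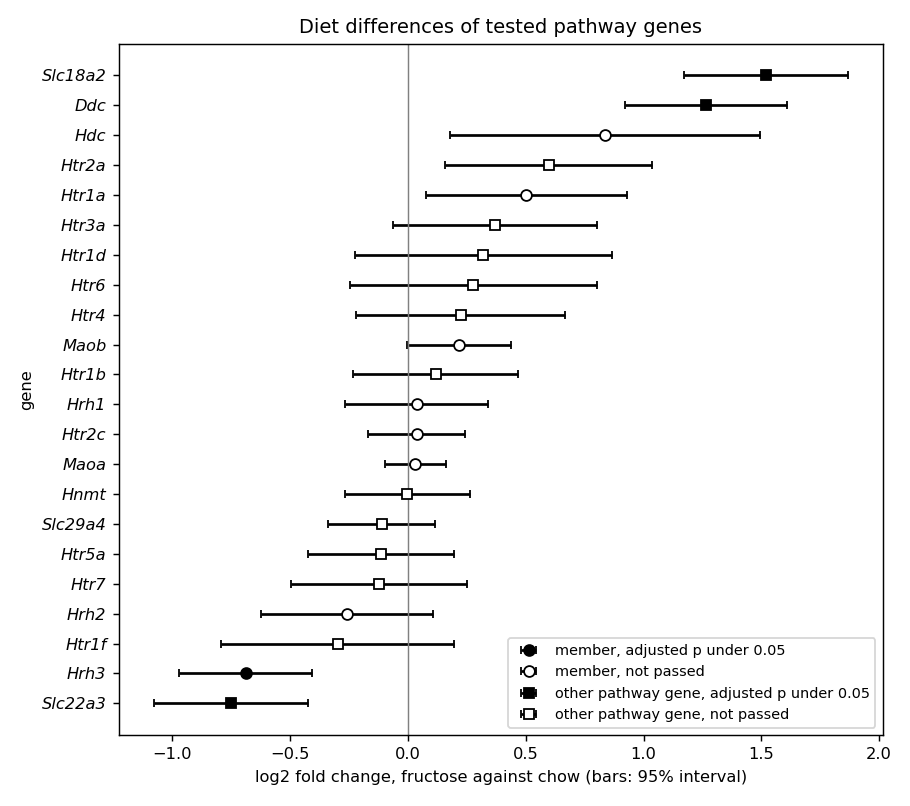
Log2 fold change of fructose against chow (horizontal axis, on the log2(FPKM + 0.5) scale) for the 22 tested pathway genes, with 95% intervals from limma; circles are members, squares other pathway genes, and filled symbols passed at an adjusted p under 0.05. Slc18a2 and Ddc lie at the high end (1.52 and 1.26), Hrh3 and Slc22a3 at the low end (-0.69 and -0.75).

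Genes whose level followed Hdc or Hrh3 most closely over the 13 rats were sought after centring each diet on its own mean, so that the diet difference itself made no likeness. For Hdc the 5 nearest of the tested genes, passing over predicted ones, were Uros, a heme synthesis enzyme gene (r = 0.89), the joined row of the carboxylesterase Ces1d with LOC291863 (0.89), Kirrel (0.87), Rgma (0.86) and Prss23 (0.86). Each had a limma adjusted p above 0.05 between diets, the lowest being 0.0604 for Prss23. For Hrh3 they were Dlgap3 (0.97), Rtn4rl1 (0.95), Rims2 (0.94), Grid2ip (0.94) and Shank3 (0.94), of which Dlgap3 and Shank3 encode scaffolds of the postsynaptic density. Grid2ip and Shank3 fell on fructose (log2 fold change -1.27 and -0.87, limma adjusted p = 0.0274 and 0.0452), while Dlgap3 stood at -0.75 (adjusted p = 0.0522). Grid2ip lost its call when any 1 of chow replicates 2, 4 and 7 and fructose replicates 4 and 6 was left out, and Shank3 passed in 4 of 13 such runs. These r values are the highest of 11837 and carry no test.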

How the data were processed

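Hypothalamic RNA of 7 chow and 6 fructose rats was analysed in a table of FPKM values that the authors deposited. The submitters' processing notes name rat build rn5 and the tools Cuffdiff, Cufflinks (version 2.1.1) and STAR (version 2.3.0e). Their roles, their settings, the use of strand and the scaling of libraries are unstated in the sources used here. Each column belongs to the rat whose title it bears, and groups were taken from the diet label. Replicates were numbered in accession order and pair nothing.

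Values were analysed as log2(FPKM + 0.5), which understates the change of low genes. Genes whose mean reached 0.5 FPKM were tested with limma 3.58.1 in R 4.3.3 (intensity trend, two-sided, Benjamini-Hochberg adjustment over 11837 genes). Single values, the 4 ratios and the correlations were tested with exact two-sided permutation tests, the first over the 1716 splits of the rats, whose smallest p is 0.000583. The limma fit was tried on simulated data with independent noise for each gene. That check holds no variation shared between genes and so does not cover it. Intervals are 95% intervals of the limma fit. The fits were repeated with another pseudocount (0.1 or 1), with the filter dropped or raised to 2 FPKM, after quantile normalization or scaling by median ratios, with robust empirical Bayes, with weights per array, by the exact test, and without each rat in turn. P-values set differences against the spread between these rats and treat the rats as independent. Shared cages and the unknown injection were not accounted for.

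The members and gene lists were chosen with earlier results of these data known. The text names all members, list genes that passed where a result turns on them, the 5 most abundant genes of each pathway list and the 5 genes most like Hdc and Hrh3; any further gene was picked with its values in view. The 15 lists hold the pathway genes and markers of cell types and regions.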

Additional observations from a re-analysis of the deposited data

How the results depend on the processing

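The number of genes changed in the whole table, 466, was 308 with no filter on low values, 1019 with array weights, 0 by the exact permutation test (2223 at an unadjusted p under 0.05), and 83 to 859 with 1 rat left out. Members changed numbered 1 with each rat left out, 2 with array weights, which added Hdc, and 0 by the exact test (3 at an unadjusted p under 0.05). Pathway genes changed numbered 0 by the exact test, with 7 at an unadjusted p under 0.05. At its smallest possible p the exact test gave an adjusted p of 0.0663, so it could call no gene here. With 1 rat left out, the log2 difference of the Hdc to Hrh1 ratio lay between 0.63 and 0.99, and that of the Maob to Maoa ratio between 0.14 and 0.25. Signs turned for values that had not passed. Hrh1 stood at -0.023 with quantile normalization and between -0.036 and 0.13 with 1 rat left out, and Hnmt at 0.055 with array weights and between -0.093 and 0.056. With 1 rat left out, Tph2 lay between -0.12 and 0.0070, Htr2c between -0.024 and 0.085 and Htr5a between -0.17 and 0.020. Slc17a8 stood at -0.079 with quantile normalization and between -0.054 and 0.11 with 1 rat left out. In chow rats, r of Hdc lay between -0.044 and 0.72 with Hrh1, between -0.018 and 0.74 with Hrh2 and between -0.33 and 0.53 with Hrh3. Permutation tests of the correlations with 1 fructose rat left out were not run, since a test was made with 6 rats or more. The r values without the 2 farthest rats rest on 5 chow or 4 fructose rats and carry no test. The depth of each library is unknown, so the lowest members, Tph2 and Slc6a4, cannot be given a counting error. The relations with marker sums were added after the data were seen.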

Other observations

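Of 8 raphe serotonin markers with a row, 4 were tested, of which 0 rose, 1 fell (Slc22a3) and 3 did not pass. At an unadjusted p under 0.05 there were 3 by limma and 3 by the exact test, beside 2269 and 2223 of all 11837 genes tested. Slc17a8, a glutamate transporter gene, stood at 0.011 on the log2 scale (limma adjusted p = 0.983). Fev was above 0 in 2 of 13 rats. The other tested genes were transcription factor genes that other brain regions use as well. Gata3 averaged 0.327 ± 0.279 FPKM in 7 chow rats and 1.11 ± 0.548 FPKM in 6 fructose rats (mean ± SD, log2 fold change 0.93 ± 0.26, limma adjusted p = 0.0619), with 5 of 6 fructose rats above every chow rat. It passed without chow replicate 6 (0.0382) or fructose replicate 6 (0.0296). Gata2 stood at 2.28 ± 0.327 and 3.11 ± 0.743 FPKM (0.36 ± 0.13, limma adjusted p = 0.128). Tph2, Slc6a4 and Fev, which define serotonin neurons, together came to no more than 0.605 FPKM in any rat.

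In 28 groups of values (10 genes and 4 ratios in each diet) no rat stood apart from the rest of its diet by Dixon's test, which chance alone passes in about 1 of 20 groups.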
